A study of Mus musculus with 4 samples.

Results

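The DNA replication and S-phase genes are 37 genes whose products license origins, unwind and copy the chromosome and supply its building blocks, together with the cyclins and the E2F factor that open S phase. They were chosen by gene symbol from a list made with earlier results of these data known. Each of the 37 was among the 24346 symbols of the files. All 37 also reached the mean of 0.1 FPKM set for testing, as did 15896 symbols in all. FPKM is a count of sequenced fragments scaled to the length of the gene's exons and to the mapped total of the library, so levels of different genes can be compared.

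The libraries came from the dorsal skin of male C57BL/6 mice, aged 8 weeks when the diets began. The Cont-IMQ group (2 libraries) received the NASH diet, rich in fat, cholesterol, sucrose and bile salt, for 3 weeks and then imiquimod (IMQ) cream, a Toll-like receptor 7 agonist, for 1 day. The 7KC-IMQ group (2 libraries) received the same diet with 7-ketocholesterol (7KC), an oxidized cholesterol, for 3 weeks and the same cream for 1 day. All 4 libraries therefore share the NASH diet and IMQ, and neither untreated skin nor vehicle-treated skin is part of the comparison. Nothing in the labels says whether one library is one animal, so p-values measure only the spread between these libraries. Below, a pair of values for a gene gives replicates 1 and 2 of Cont-IMQ first, and the pair after "against" gives replicates 1 and 2 of 7KC-IMQ.

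In G1, the origin recognition complex, CDC6 and CDT1 load the MCM2 to MCM7 ring onto DNA, which is called licensing. In S phase, CDC45 and the GINS complex join the ring to form the active helicase, and polymerases alpha, delta and epsilon copy the strands behind it. E2F transcription factors drive many of these genes at the G1/S boundary. In skin, replication is known mainly from the basal layer of the epidermis and the matrix of growing hair follicles, and a thickened, dividing epidermis is a hallmark of psoriasis.

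The estimated depth was 14960000 to 16220000 mapped reads per library, found from the steps of 1 read in the low values. The markers of keratinocytes were present, with *Krt14* between 4132 and 5700 FPKM. Cont-IMQ replicate 2 stood apart in the growing hair follicle markers, as their summed level was 1316 FPKM there but 102.8 FPKM in the other Cont-IMQ library, and the 7KC-IMQ libraries had sums of 381 and 337 FPKM.

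As a group, the replication and S-phase genes were higher in mean in the 7KC-IMQ group in 37 of 37 cases, against 48.7% of all genes tested. In 34 genes both 7KC-IMQ values exceeded both Cont-IMQ values, called higher without overlap here, against 23.9% of all genes tested, and in 0 genes both lay below, against 22.9%. The exceptions with overlap were *Orc6*, *Gins3* and *Rfc3*. As the list was made with earlier results of these data known, such counts describe it and are no independent test. The differences were small. The median difference in log2(FPKM + 1) was 0.30, with a range of 0.10 (*Orc6*) to 0.62 (*Ccne1*), whereas the median over all genes tested was -0.0056. By limma, 0 of the 37 genes passed an adjusted p-value of 0.05 (Benjamini-Hochberg over all genes tested, background 0.00629%), and their adjusted p-values ranged from 0.352 to 0.701. At an unadjusted p-value under 0.05 there were 23 of the 37 genes on the higher side (background 7.5%) and 0 on the lower side (background 5.47%). Among the 13110 genes with a mean of at least 1 FPKM, which include all 37, the higher side held 24 of the 37 genes (background 8.24%) and the lower side 0 (background 5.84%), with 34 higher without overlap (background 25.9%), 0 lower without overlap (background 23.2%), 37 higher in mean (background 50.5%) and 0 past adjustment (background 0.00763%).

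These unadjusted counts depended on the scaling and on the 7KC-IMQ libraries. With every library rescaled to the same FPKM sum, 10 of the 37 genes had an unadjusted p-value under 0.05 on the higher side, and the split over all genes turned from 1192 higher and 869 lower to 638 higher and 1229 lower. When either 7KC-IMQ library was left out, the counts fell both in the 37 genes and over all genes, with 1 library left in that group. The median log2 difference of the 37 genes stayed at 0.30 in both cases.

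**Figure D1:**
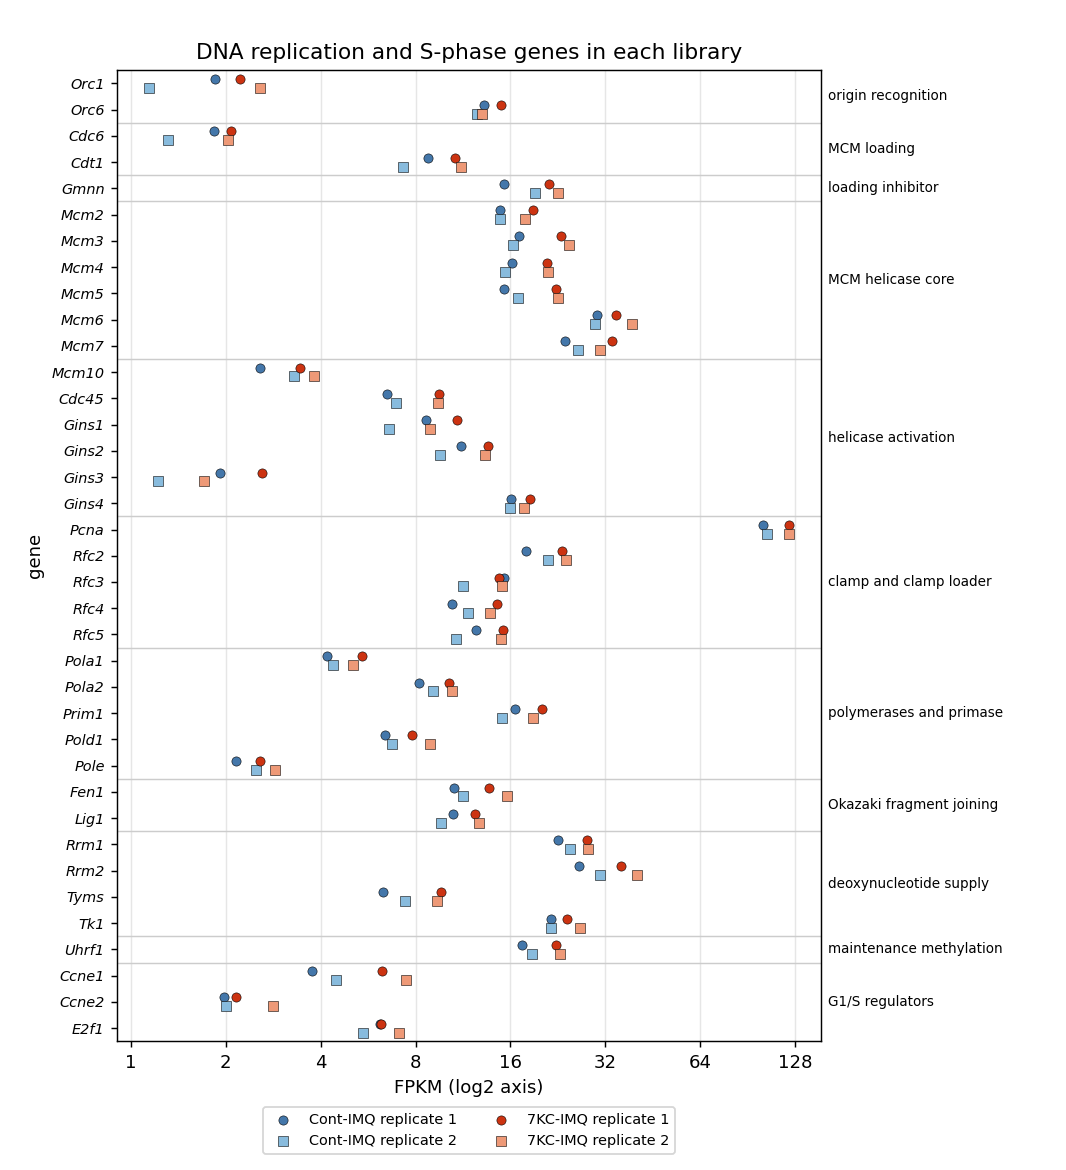
FPKM of each of the 37 genes (rows, ordered by role, log2 axis) in the 4 libraries, where blue points are the Cont-IMQ and red points the 7KC-IMQ libraries. In 34 rows both red points lie to the right of both blue points, and *Orc6*, *Gins3* and *Rfc3* overlap.

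Single genes could differ within a group, such as *Rfc3* with 15.2 and 11.4 FPKM in the Cont-IMQ libraries. The summed level of the 37 genes was close within each group, at 527 and 538 FPKM against 660 and 672 FPKM. *Pcna* alone made up about 100 FPKM of these sums, and without it they were 426 and 433 FPKM against 537 and 549 FPKM. The lowest value of a gene was found in Cont-IMQ replicate 1 for 21 genes and in Cont-IMQ replicate 2 for 16 genes, and never in a 7KC-IMQ library. The highest value was in 7KC-IMQ replicate 1 for 15 genes, in 7KC-IMQ replicate 2 for 21 genes and in Cont-IMQ replicate 1 for 1 gene, *Rfc3*. In bulk tissue, fewer cells of a type and less RNA per cell cannot be told apart, and the same holds for more dividing cells and more of these transcripts per cell.

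Of the origin recognition complex, *Orc1* encodes the ATPase subunit that is made anew in each G1 phase. It had 1.85 and 1.14 FPKM against 2.22 and 2.58 FPKM, from an estimated 49 to 109 reads per library. The groups did not overlap, but the Cont-IMQ libraries differed from each other more than the nearest libraries of the 2 groups did, and the log2 difference of 0.46 had a standard error of 0.18 (limma, adjusted p = 0.387). *Orc6*, the smallest subunit, had 13.2 and 12.6 FPKM against 14.9 and 13.0 FPKM, so 7KC-IMQ replicate 2 lay between the Cont-IMQ libraries.

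The loading factors sat below the ring that they load. *Cdc6*, an ATPase that completes the loader, had 1.84 and 1.32 FPKM against 2.07 and 2.03 FPKM. *Cdt1*, which brings the ring to the origin, had 8.76 and 7.30 FPKM against 10.7 and 11.2 FPKM, a log2 difference of 0.41 (standard error 0.12, limma, adjusted p = 0.356). *Gmnn* encodes geminin, the inhibitor that binds CDT1 and blocks a second round of licensing. It had 15.3 and 19.1 FPKM against 21.2 and 22.6 FPKM, and was thus higher without overlap together with the loading factor that it inhibits.

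The genes of the helicase ring, *Mcm2* to *Mcm7*, were all 6 higher without overlap (background 23.9%). All 6 had an unadjusted p-value under 0.05 (background 7.5%, limma, adjusted p from 0.352 to 0.357). Their summed level was 117 and 119 FPKM against 153 and 156 FPKM. *Mcm3* (GRCm38, chromosome 1, 20802968 to 20820312, minus strand) had the largest difference of the set, with 17.1 and 16.3 FPKM against 23.1 and 24.6 FPKM, and means of 16.7 ± 0.567 and 23.9 ± 1.08 FPKM (SD, n = 2 each). Its log2 difference of 0.49 (standard error 0.081) stayed between 0.45 and 0.53 with each library left out in turn.
*Mcm5* had 15.3 and 16.9 FPKM against 22.3 and 22.7 FPKM. *Mcm4* had 16.2 and 15.4 FPKM against 20.9 and 21.1 FPKM. The proteins of this set form 1 ring with a single copy of each subunit. The highest of their transcripts was 2.04 and 2.00 times the lowest against 1.84 and 2.19 times. For *Gins1* to *Gins4*, also subunits of 1 complex, this ratio was 8.41 and 13.1 against 7.06 and 10.4. A relation of these ratios to the copies of the subunits was not tested.
*Mcm6* was the highest of the ring genes, with 30.1 and 29.7 FPKM against 34.7 and 39.0 FPKM. *Mcm7* had 23.9 and 26.2 FPKM against 33.5 and 30.9 FPKM. *Mcm2* had 14.8 FPKM in both Cont-IMQ libraries against 18.9 and 17.8 FPKM. The smallest log2 difference of the set was 0.29, in *Mcm2* and in *Mcm6*. The exons of *Mcm7* overlap those of *Ap4m1* and *Cops6* on the opposite strand, and 13.2% of its 75-base windows also occur in another annotated gene.

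Of the 6 genes that activate the ring, 5 were higher without overlap (background 23.9%) and 2 had an unadjusted p-value under 0.05 (background 7.5%). *Cdc45* had 6.52 and 6.94 FPKM against 9.48 and 9.45 FPKM, a log2 difference of 0.44 (standard error 0.091, limma, adjusted p = 0.352). *Mcm10*, which despite its name is no part of the ring and helps it to start unwinding, had 2.56 and 3.28 FPKM against 3.44 and 3.80 FPKM. The gap between the groups in *Mcm10* was smaller than the gap between its Cont-IMQ libraries.
Of the GINS subunits, *Gins1* had 8.66 and 6.58 FPKM against 10.9 and 8.90 FPKM, and *Gins4* had 16.08 and 15.96 FPKM against 18.4 and 17.7 FPKM. Both were without overlap, in *Gins1* only narrowly. *Gins2* had 11.1 and 9.59 FPKM against 13.6 and 13.3 FPKM, but 64.7% of its 75-base windows also occur in another gene, mainly *Gse1* on the opposite strand, and whether strand was used in the counting is not given in the sources used here. *Gins3* was the lowest of the 4 and overlapped, with 1.91 and 1.22 FPKM against 2.61 and 1.70 FPKM, from an estimated 43 to 98 reads.

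*Pcna* (chromosome 2, 132249162 to 132253314, minus strand), the sliding clamp that holds polymerases on DNA and a common marker of proliferation, had the highest level of the 37 genes. It had 101 and 104.6 FPKM against 122 FPKM in both 7KC-IMQ libraries, a log2 difference of 0.25 (standard error 0.068, limma, adjusted p = 0.356). Of its windows, 13.9% are shared, mainly with the pseudogene *Pcna-ps2*. The clamp loader subunits *Rfc4* and *Rfc5* were without overlap, with 10.5 and 11.7 against 14.5 and 13.7 FPKM in *Rfc4*, and 12.4 and 10.8 against 15.1 and 14.9 FPKM in *Rfc5*. *Rfc2* had 17.99 and 21.1 FPKM against 23.4 and 24.03 FPKM, and 13.9% of its windows are shared, mainly with *Lat2* on the opposite strand. *Rfc3* stood out in the set, as Cont-IMQ replicate 1 (15.2 FPKM) lay above both 7KC-IMQ libraries (14.7 and 15.0 FPKM) and Cont-IMQ replicate 2 (11.4 FPKM) far below them. Without Cont-IMQ replicate 2, the log2 difference of *Rfc3* turned from 0.16 to -0.037.

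The 5 polymerase and primase genes were all higher without overlap (background 23.9%), at a median log2 difference of 0.24. Of these, 2 had an unadjusted p-value under 0.05 (background 7.5%). *Pola1* and *Pola2*, the catalytic and the second subunit of polymerase alpha, had 4.18 and 4.37 against 5.42 and 5.06 FPKM and 8.202 and 9.09 against 10.2 and 10.4 FPKM. *Prim1*, the primase that lays the RNA primers, had 16.5 and 15.1 FPKM against 20.2 and 18.9 FPKM. The log2 differences of these 3 genes were 0.23 to 0.29.
*Pold1*, the catalytic subunit of polymerase delta on the lagging strand, had 6.38 and 6.73 FPKM against 7.77 and 8.90 FPKM. *Pole*, its counterpart on the leading strand, had 2.15 and 2.50 FPKM against 2.58 and 2.86 FPKM, so that 7KC-IMQ replicate 1 lay just above Cont-IMQ replicate 2. *Fen1*, the nuclease that trims Okazaki fragments, had 10.6 and 11.3 FPKM against 13.7 and 15.6 FPKM, a log2 difference of 0.38, though 73.7% of its windows are shared with genes such as *Gm10143* on the opposite strand. *Lig1*, the ligase that seals them, had 10.6 and 9.64 FPKM against 12.3 and 12.8 FPKM.

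All 4 genes of deoxynucleotide supply were higher without overlap (background 23.9%) and had an unadjusted p-value under 0.05 (background 7.5%). *Rrm2*, the small subunit of ribonucleotide reductase that appears in S phase, had 26.4 and 30.7 FPKM against 35.9 and 40.2 FPKM, a log2 difference of 0.40 (standard error 0.11, limma, adjusted p = 0.356). *Rrm1*, the large subunit, had 22.7 and 24.7 FPKM against 28.1 and 28.3 FPKM.
*Tyms*, which makes thymidylate, had 6.29 and 7.39 FPKM against 9.62 and 9.34 FPKM, or 39% more in the mean of the 7KC-IMQ group. *Tk1*, which salvages thymidine, had 21.5 and 21.6 FPKM against 24.2 and 26.6 FPKM. *Uhrf1*, which guides the methylation of newly copied DNA, had 17.4 and 18.7 FPKM against 22.3 and 22.9 FPKM. In *Rrm1*, *Tyms* and *Uhrf1* the 7KC-IMQ libraries were closer to each other than to any Cont-IMQ library.

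The regulators of S-phase entry held both the largest and some of the smallest differences. *Ccne1* (chromosome 7, 38097984 to 38107534, minus strand), a cyclin that activates CDK2 at the end of G1, had 3.75 and 4.46 FPKM against 6.24 and 7.45 FPKM. The means were 4.10 ± 0.504 and 6.85 ± 0.855 FPKM (SD, n = 2 each), a fold of 1.67, and the log2 difference of 0.62 (standard error 0.14, limma, adjusted p = 0.354) lay between 0.51 and 0.73 when any 1 library was omitted. *Ccne2*, its paralog, had 1.98 and 2.00 FPKM against 2.15 and 2.82 FPKM, where 7KC-IMQ replicate 1 lay barely above the Cont-IMQ libraries. *E2f1*, an activator of S-phase genes, had 6.18 and 5.43 FPKM against 6.22 and 7.10 FPKM. The lower 7KC-IMQ value hardly exceeded the higher Cont-IMQ value, and the log2 difference was 0.17 (standard error 0.12, limma, adjusted p = 0.59).

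**Figure D2:**
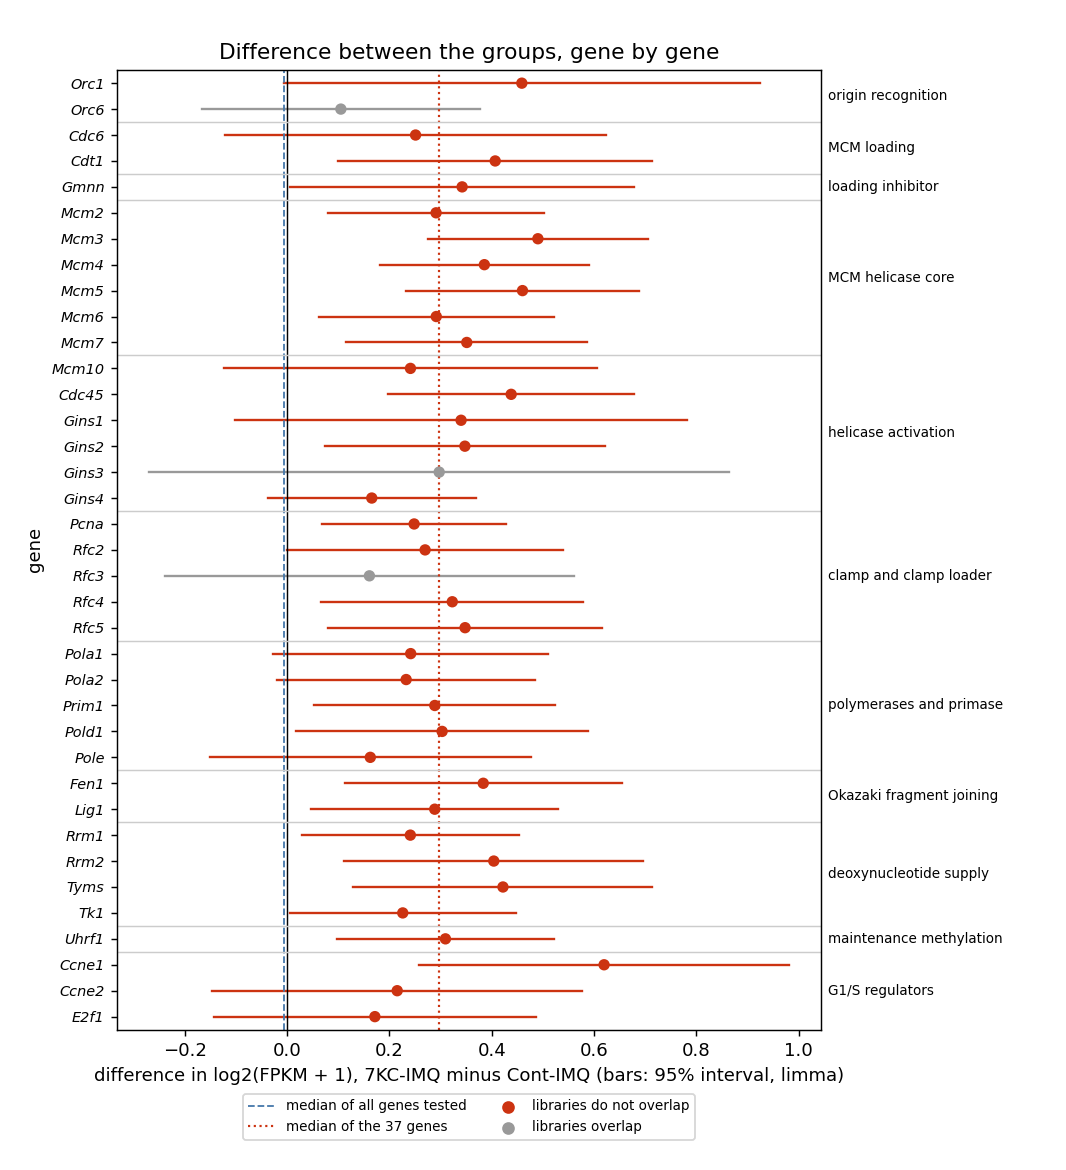
Difference in log2(FPKM + 1) between the 7KC-IMQ and the Cont-IMQ group for each of the 37 genes, with the 95% interval from limma as bars, red where the libraries do not overlap and grey where they do. All points lie above 0, the dotted line marks the median of 0.30, and the dashed line the median of all genes tested, -0.0056.

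E2F proteins bind short sites in promoters, and the RefSeq promoters of the 37 genes (GRCm38.p6, the same assembly as mm10, from 250 bases before to 50 bases after a transcript start) were searched for their letters. A promoter was found for 29 of the genes, but not for *Gmnn*, *Mcm4*, *Gins1*, *Gins2*, *Gins4*, *Rfc2*, *Pole* and *Ccne2*. The motif was any of TTTCCCGC, TTTCGCGC, TTTGCCGC and TTTGGCGC on either strand, and matches may overlap each other. It was present in 13 of the 29 genes (44.8%), against 2.6% of all 27025 genes with a promoter in the table and 4.19% of the 11913 of them that were tested here. The median GC content was 59.2% in the promoters of the 29 genes and 59.7% in those of the genes tested. The letters CCAAT, on either strand, were present in 58.6% of the 29 genes and in 41.8% of the genes tested. A match is a description of the letters and not a binding site.

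The 180 bases before the start are shown for *Mcm5* and *Mcm6* as ring genes with the motif, *Pola1* as a polymerase gene with it, and *Mcm2* as a ring gene without it in its window. They lie in chr8:75109329-75109508 on the plus strand, chr1:128359706-128359885 on the minus strand, chrX:93632156-93632335 on the minus strand and chr6:88898781-88898960 on the minus strand, outside of annotated exons. Capitals mark the E2F motif.
Mcm5: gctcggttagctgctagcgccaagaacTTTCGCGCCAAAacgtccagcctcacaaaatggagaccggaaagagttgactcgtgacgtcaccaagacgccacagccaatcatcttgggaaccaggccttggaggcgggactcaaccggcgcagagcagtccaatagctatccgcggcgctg
Mcm6: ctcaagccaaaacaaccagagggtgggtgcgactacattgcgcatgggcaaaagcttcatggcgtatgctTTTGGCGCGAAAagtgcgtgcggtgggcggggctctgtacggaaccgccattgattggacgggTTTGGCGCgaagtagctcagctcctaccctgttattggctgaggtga
Pola1: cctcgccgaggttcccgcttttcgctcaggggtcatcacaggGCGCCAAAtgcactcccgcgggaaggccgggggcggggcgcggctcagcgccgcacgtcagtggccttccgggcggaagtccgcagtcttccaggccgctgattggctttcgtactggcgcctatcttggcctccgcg
Mcm2: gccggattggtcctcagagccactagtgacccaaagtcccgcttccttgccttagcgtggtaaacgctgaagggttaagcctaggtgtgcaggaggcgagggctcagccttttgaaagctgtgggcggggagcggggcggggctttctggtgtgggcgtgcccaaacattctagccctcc
In *Mcm5* and at the first site of *Mcm6*, 12 capitals in a row hold a match on each strand that share 4 letters. The log2 differences of these genes were 0.46 in *Mcm5*, 0.29 in *Mcm6*, 0.24 in *Pola1* and 0.29 in *Mcm2*, and no relation between the motif and the difference was tested.

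Other genes of the same machinery were listed beside the 37. For every list, the shares over all genes tested were 23.9% higher and 22.9% lower without overlap, and 7.5% and 5.47% at an unadjusted p-value under 0.05. Of 36 other origin and fork genes, 25 were higher without overlap and 1 was lower, with 9 at an unadjusted p-value under 0.05 on the higher side, 0 on the lower side and a median log2 difference of 0.19. *Pold2*, a subunit of polymerase delta, had 23.7 and 20.1 FPKM against 30.7 and 31.4 FPKM, and *Dscc1*, of an alternative clamp loader, had 1.53 and 1.25 FPKM against 2.32 and 2.22 FPKM. At the other end, *Rpa3* of the single-strand binding complex had 21.8 and 28.7 FPKM against 20.7 and 24.6 FPKM, and *Orc5* had 8.06 and 8.21 FPKM against 8.05 and 6.93 FPKM. Of 19 other S-phase genes, 15 were higher without overlap and 1 lower, with 7 at an unadjusted p-value under 0.05 on the higher side, 0 on the lower side and a median of 0.23. The chromatin assembly factor gene *Chaf1b* had 8.71 and 8.34 FPKM against 12.02 and 12.3 FPKM, and *Dut*, which keeps uracil out of DNA, had 10.0 and 10.8 FPKM against 14.2 and 13.4 FPKM. The lowest were *Rrm2b*, the reductase subunit used outside S phase, with 4.56 and 4.59 FPKM against 4.12 and 3.55 FPKM, and the salvage kinase *Dck*, with 10.8 and 10.5 FPKM against 11.7 and 9.06 FPKM. None of these genes passed an adjusted p-value of 0.05 in limma.

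Of 15 G1/S activators, 6 were higher (40.0%, background 23.9%) and 2 lower (13.3%, background 22.9%) without overlap, with 2 on each side at an unadjusted p-value under 0.05 (background 7.5% and 5.47%) and a median log2 difference of 0.080. With every library rescaled to the same FPKM sum, 3 of the 15 were higher without overlap, and no share over all genes was computed in that setting. *Tfdp1*, the partner of E2F proteins on DNA, had 45.5 and 49.0 FPKM against 62.8 and 61.7 FPKM, and the kinase gene *Cdk6* had 5.13 and 5.35 FPKM against 6.83 and 7.12 FPKM. At the lower end, *E2f2* had 5.94 and 6.26 FPKM against 4.56 and 4.27 FPKM, and *Tfdp2* had 5.58 and 5.26 FPKM against 4.47 and 3.96 FPKM. Of 17 G1/S inhibitors, 5 were higher and 5 lower without overlap (29.4% each, background 23.9% and 22.9%), with 1 and 2 at an unadjusted p-value under 0.05 (background 7.5% and 5.47%) and a median of 0.035. These shares are near the background, so they are no result about the inhibitors. *Cdkn1b*, which encodes the CDK inhibitor p27, had 19.9 and 22.8 FPKM against 17.7 and 14.5 FPKM, and *Rbl2*, a relative of the retinoblastoma gene, had 13.6 and 14.3 FPKM against 11.95 and 10.96 FPKM. The repressors *E2f7*, with 2.05 and 2.79 FPKM against 2.72 and 3.94 FPKM, and *E2f4*, with 40.4 and 38.8 FPKM against 46.1 and 51.7 FPKM, were at the upper end. Without Cont-IMQ replicate 2, a single Cont-IMQ library is left, and non-overlap is then easier to reach. Counts from that setting are therefore not set beside these shares.

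**Figure D3:**
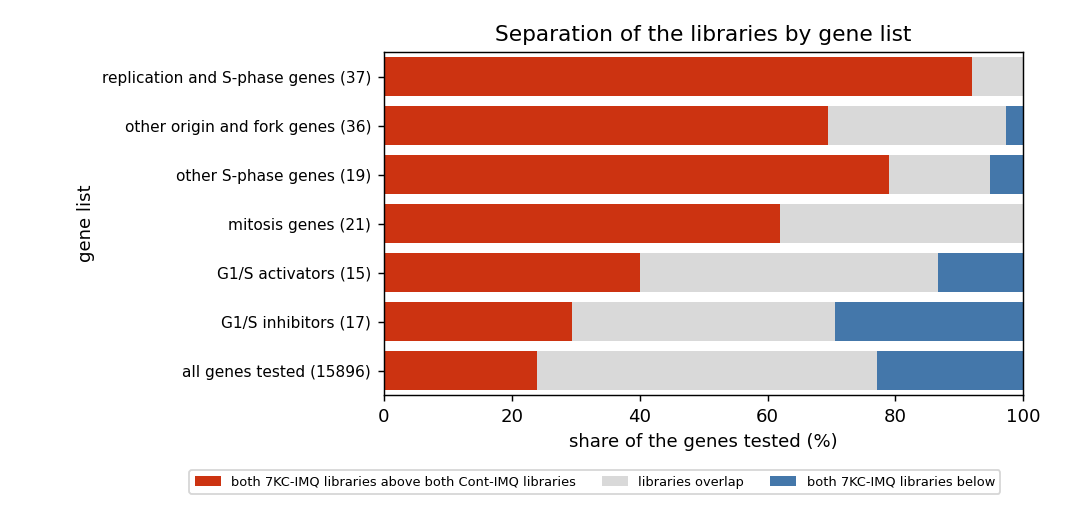
Share of the genes tested in each list (numbers in brackets) with both 7KC-IMQ values above both Cont-IMQ values (red), overlapped with them (grey) or lay below both (blue). Red takes 91.9% of the 37 genes, 69.4% of the other origin and fork genes, 78.9% of the other S-phase genes and 23.9% of all genes tested.

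Mitosis genes were compared as the next step of the same cycle. Of 21 mitosis genes, 13 were higher (61.9%, background 23.9%) and 0 lower (background 22.9%) without overlap, with 4 at an unadjusted p-value under 0.05 on the higher side (background 7.5%), 0 on the lower side (background 5.47%) and a median log2 difference of 0.25. The count depended on the scaling, as 5 of the 21 were higher without overlap with every library rescaled to the same FPKM sum. No share over all genes was computed in that setting. *Cdc20*, the activator of the anaphase-promoting complex, had 20.1 and 23.2 FPKM against 31.2 and 36.9 FPKM, and *Cdk1* had 11.2 and 13.8 FPKM against 15.8 and 17.1 FPKM. *Nusap1*, with 8.52 and 8.13 FPKM against 8.34 and 8.19 FPKM, and *Anln*, with 8.26 and 10.1 FPKM against 9.66 and 8.62 FPKM, overlapped. Relative to the mean of the Cont-IMQ libraries, the mean log2(FPKM + 1) of the mitosis genes was -0.12 and 0.12 against 0.29 and 0.17. In the 37 replication and S-phase genes the same measure was 0.0055 and -0.0055 against 0.30 and 0.32, where the Cont-IMQ libraries lay close together. As for the lists above, the count without Cont-IMQ replicate 2 is not set beside the share of 61.9%, as a single Cont-IMQ library is then left.

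Marker lists of cell types were read beside these values. Each holds few genes, and over all genes tested 23.9% were higher and 22.9% lower without overlap, so about 1 gene of 4 in each direction is the background. The growing hair follicle markers, from another site of dividing cells, had values of -1.202 and 1.202 against 0.036 and -0.077 on the same scale, and 0 of the 9 genes were separated without overlap. The median log2 difference of the 37 genes was 0.29 without Cont-IMQ replicate 2 and 0.30 without Cont-IMQ replicate 1, each with a single Cont-IMQ library left. The 6 basal keratinocyte markers summed to 7879 and 7083 FPKM against 7959 and 8787 FPKM. Of the 6, 2 were higher without overlap (*Krt14* and *Itgb4*) and 1 lower (*Col17a1*, 226 and 212 FPKM against 180 and 168 FPKM). Their mean log2(FPKM + 1) differed by 0.0070 between the groups, so values taken relative to them hardly differ from the others (34 of the 37 genes higher without overlap, median 0.29).
The general leukocyte markers summed to 195 and 188 FPKM against 187 and 174 FPKM, with 0 of 4 higher and 3 of 4 lower without overlap, and the nearest sums of the groups almost met. The T cell markers summed to 17.7 and 15.9 FPKM against 13.4 and 10.8 FPKM, with 1 of 4 higher and 3 of 4 lower. The macrophage and monocyte markers summed to 330 and 369 FPKM against 297 and 292 FPKM, with 3 of 4 lower, and the endothelial markers to 40.8 and 46.1 FPKM against 35.6 and 33.6 FPKM, with 3 of 4 lower. In the neutrophil list, 3 of 3 genes in the files were higher, with sums of 18.01 and 20.3 FPKM against 27.5 and 29.5 FPKM. The suprabasal keratinocyte markers summed to 16594 and 9468 FPKM against 11009 and 12181 FPKM, with 0 higher and 2 of 5 lower. None of the defining markers in these lists was listed at 0, and the part of the growing hair follicle, basal keratinocyte, neutrophil, leukocyte, T cell, macrophage, endothelial, suprabasal and muscle lists in the result was not tested. The skeletal muscle markers summed to 5534 and 5449 FPKM against 4671 and 5411 FPKM, lower in sum, although 2 of 4 genes were higher and 1 lower without overlap. The sums of the groups overlapped in the fibroblast list (1 of 4 higher, 1 lower), the adipocyte list (2 of 4 higher, 0 lower), the melanocyte list (0 of 4 either way) and the red blood cell list (0 of 3 tested higher, 1 lower).

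**Figure D4:**
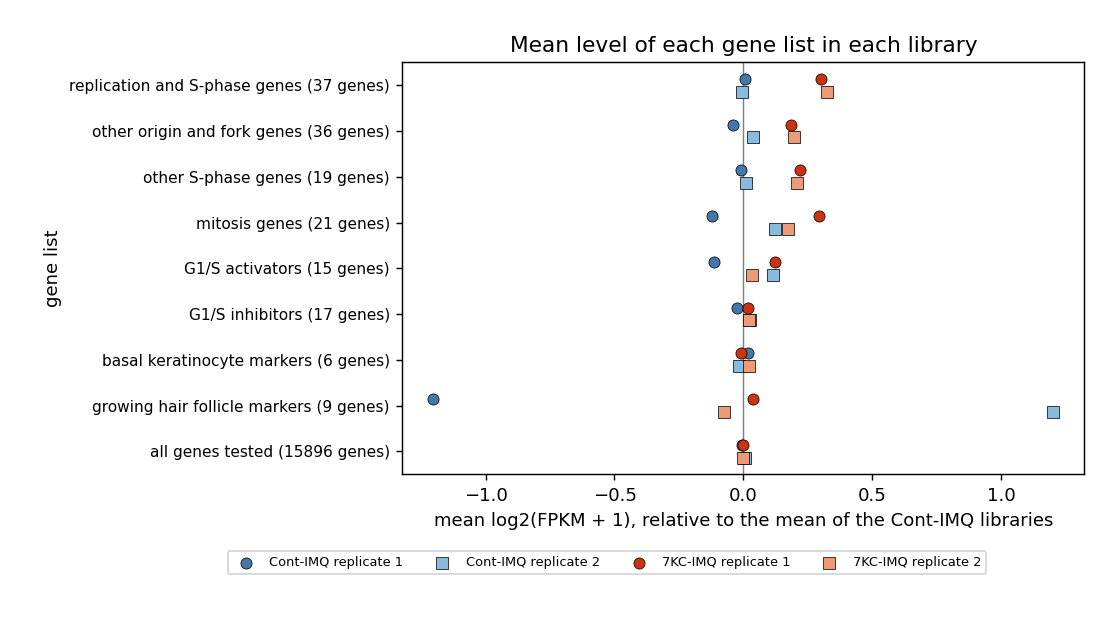
Mean log2(FPKM + 1) of each gene list in each library, relative to the mean of the Cont-IMQ libraries (0 on the axis). The 7KC-IMQ libraries lie at 0.30 and 0.32 in the replication and S-phase genes, the Cont-IMQ libraries lie at -1.202 and 1.202 in the growing hair follicle markers, and all libraries lie near 0 in the basal keratinocyte markers and in all genes tested.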

How the data were processed

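RNA from dorsal skin was sequenced on Day 1 in 4 libraries, and groups and replicate numbers were taken from the sample labels. Single-end reads of 75 bases were aligned to mm10, and the authors deposited FPKM values per gene symbol, already scaled to mapped fragments and exon length. The submitters' processing notes name TopHat2 2.1.1, Bowtie2 2.2.8, SAMtools 0.1.18 and Cuffdiff 2.2.1, whereas the methods name Cufflinks and other releases of the mapping tools. The annotation and the use of strand are not given in the sources used here. No counts are part of the files, so no count model was used. Values were taken as log2(FPKM + 1) without rescaling, genes with a mean of at least 0.1 FPKM were kept (15896), and the groups were compared by limma 3.58.1 in R 4.3.3 with a variance trend and Benjamini-Hochberg adjustment over all genes tested. On this scale the change of low genes is understated. An exact permutation test of 2 against 2 libraries cannot give a two-sided p-value below 0.333.

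Depth was estimated from genes with a single annotated transcript of at least 500 bases (GENCODE M21, GRCm38, the assembly also called mm10), with a fragment length of 200 ± 80 bases assumed. Between 72.9% and 75.6% of their low values were within 0.1 of whole reads, where chance alone gives 20%. Reads per gene were estimated from the longest coding transcript and are approximate. Shared 75-base windows were counted over GENCODE transcripts on both strands. The gene test was checked on simulated data. At an adjusted p-value under 0.05 in limma, it recovered 22 of 100 genes with a log2 change of 1. It recovered 93 of 100 with a change of 2, and made 2 false calls. Changes as small as those of the 37 genes were not simulated. The 37 genes and the other lists were chosen with earlier results of these data known. The genes named from the other lists are the 2 highest and the 2 lowest log2 differences at a mean of at least 1 FPKM. Of the marker genes, *Flg*, *Ly6g* and *Hbb-bt* were not matched in the files.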

Additional observations from a re-analysis of the deposited data

How the results depend on the processing

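Across the 37 genes and 13 alternatives, 480 of 481 differences were above 0, and none passed an adjusted p-value of 0.05 in limma. The exception was *Rfc3* without Cont-IMQ replicate 2 (-0.037), which ranged up to 0.358 without Cont-IMQ replicate 1. With every library kept, the number of these genes higher without overlap was 31 with the same FPKM sum and 34 otherwise. Their median difference was 0.34 with a pseudocount of 0.1 (-0.0067 over all genes tested) and 0.23 with the same FPKM sum (-0.066 over all genes tested). Those at an unadjusted p-value under 0.05 were 10 with the same FPKM sum and 5 to 18 with a library left out. With the same FPKM sum, 3 G1/S activators, 3 G1/S inhibitors and 5 mitosis genes were higher without overlap, and with a library left out 6 to 12, 5 to 10 and 13 to 20. Over all genes, 1 passed an adjusted p-value of 0.05 (*Mir24-2*, a microRNA gene listed at 0 in both 7KC-IMQ libraries and named after its values were seen), 2 with a pseudocount of 0.1 and 1 to 11 with a library left out (11 without Cont-IMQ replicate 1, 5 without Cont-IMQ replicate 2). At an unadjusted p-value under 0.05, 638 were higher with the same FPKM sum, and 339 to 1196 higher and 280 to 1149 lower with a library left out. A lone library left in a group is assumed to vary like the others. Non-overlap is easier to reach with a lone library, so non-overlap counts with a library left out cannot be compared with those from every library. Values relative to the basal keratinocyte markers were an alternative chosen after seeing the data. Replicate numbers are shared by the groups, but deviations of same-numbered libraries correlated at only 0.0651 over genes, so they were not taken as pairs. With the replicate number as a block, 20 of the 37 genes had an unadjusted p-value under 0.05, and the count past adjustment stayed at 1 over all genes.
The depth limits the low genes most, as *Gins3*, *Orc1* and *Ccne2* rest on an estimated 43 to 118 reads per library.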

Other observations

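Ratios between partner genes within a library, which do not depend on the scaling of the library, were computed as a description. *Rrm2* over *Rrm2b*, the S-phase subunit of ribonucleotide reductase over the one used outside S phase, was 5.79 and 6.70 in the Cont-IMQ libraries and 8.72 and 11.3 in the 7KC-IMQ libraries. *Ccne1* over *Ccne2* was 1.89 and 2.23 against 2.91 and 2.64. *Cdt1* over *Gmnn*, the licensing factor over its inhibitor, was 0.574 and 0.382 against 0.504 and 0.494, so the groups overlapped in this ratio. *E2f1* over *Rb1*, the activator over the pocket protein that holds it back, was 0.566 and 0.385 against 0.576 and 0.672. *Pold1* over *Pole*, the lagging over the leading strand polymerase, was 2.97 and 2.69 against 3.02 and 3.11. *Pola1* over *Pola2*, subunits of the same enzyme, was 0.510 and 0.481 against 0.531 and 0.485, and it overlapped. These ratios were chosen after the values of the genes had been seen, and no test was made of them.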
